A study of Sus scrofa with 12 samples.

Results

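Expression of 44 genes for secreted growth factors, their receptor tyrosine kinases and their binding proteins was examined in paVICs, the interstitial cells of the pig aortic valve. They are the members of the PDGF, FGF and IGF families, matched by gene symbol, together with KITLG and KIT, HGF and MET, and named members of the EGF, VEGF, GAS6 and AXL, ALKAL, midkine, neurotrophin and GDF15 groups, each with at least 60 counts summed over the 12 libraries. The symbols alone matched 60 of the 31908 genes in the count table, and 16 of these were under 60 counts, 8 of them with no count at all. FGF19 (74 counts) and FGF18 (89 counts) lay just inside the minimum, and FGF14 (49 counts) and VEGFD (36 counts) just outside it. All members but FGF18 passed the filter on low counts, so 43 were tested.

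The 12 libraries were made from poly-A RNA of wild-type paVICs in 4 groups of 3, exposed for 24 h in low-serum medium. The vehicle group had 0.6% DMSO with 0.1% ethanol, the LPC group 10 μM LPC in ethanol with 0.6% DMSO, the dantrolene group 60 μM dantrolene in DMSO with 0.1% ethanol, and the LPC + dantrolene group both agents at these doses. LPC (lysophosphatidylcholine) is a lipid of oxidized low-density lipoprotein used to drive calcification of these cells, and dantrolene blocks the ryanodine receptor calcium channels. Replicates 1, 2 and 3 are taken as 3 primary isolations, since the study ran 3 experiments from separate isolations with 1 replicate per group. The same number is therefore read as the same isolation in every group. Each isolation was pooled from the valves of several hearts with the endothelial layer wiped off, and pooling means that no library is 1 animal.

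Growth factors of these families bind receptor tyrosine kinases at the cell surface, which then signal through RAS-ERK and PI3K-AKT to growth, migration and survival. IGF binding proteins hold IGFs outside the cell and set how much of them reaches the receptor. In valve interstitial cells, PDGF and FGF signalling is known for its effects on proliferation and on the myofibroblast state.

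Total counts per library lay between 16489684 and 24105935, and 3 counts corresponded to 0.114 to 0.186 CPM, the count scaled to a common library size. CPM values below are scaled by TMM factors, are not divided by gene length, and so are compared between libraries and not between genes. LPC + dantrolene replicate 2 stood apart from its group, with the lowest TMM factor of the 12 (0.863, against 1.11 and 1.15 in the other LPC + dantrolene libraries), 17.1% of its counts in its 10 most counted genes (11.4% to 15.6% in the other 11 libraries), and 12256 genes with at least 10 counts, the fewest of all. The member calls that change without it are given below. All 12 fibroblast and interstitial markers were tested, with a summed level between 45788 and 82594 CPM. Against vehicle, 4 of them were higher with LPC, 1 with dantrolene and 1 with LPC + dantrolene at an edgeR adjusted p under 0.05, and none was lower. Of all genes tested, 8.54%, 7.54% and 6.23% were higher in these comparisons. All 12 endothelial markers were also tested, at a summed level of 176 to 205 CPM in vehicle and 127 to 169 CPM in the treated groups. Of 12 leukocyte and macrophage markers, 8 had counts and 3 were tested, at a summed level of 13.8 to 27.6 CPM. PTPRC, CD3E, LYZ and CD163 of that list were at 0 counts.

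By depth, 12 of the 44 members had a mean above 100 CPM over all libraries, 14 lay between 10 and 100 CPM, and 18 were under 10 CPM. The deeply counted members included the PDGF receptors, IGF1R and IGF2R, FGFR1, EGFR, AXL with its ligand GAS6, and the 4 IGF binding proteins. EREG, FGF1, FGF18 and FGF19 were each at 0 counts in at least 1 library, and a fold change of such genes was not read.

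**Figure D1:**
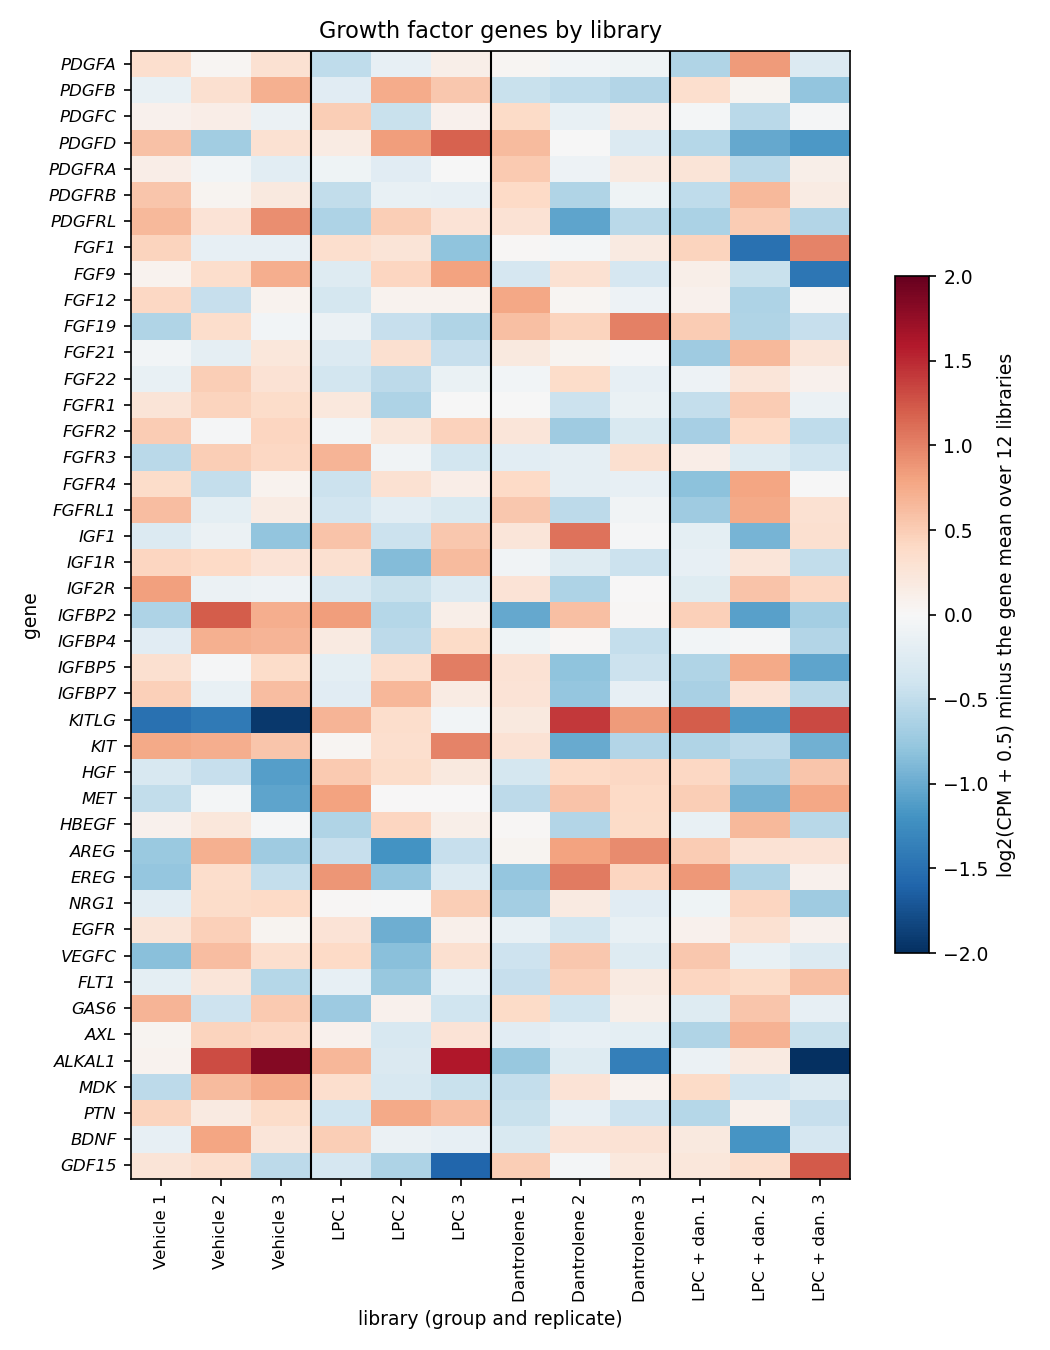
Level of each tested member (rows) in each of the 12 libraries (columns, grouped by treatment), as log2(CPM + 0.5) minus the gene's mean over all libraries; colours end at 2 log2 units either way. KITLG was low in the 3 vehicle libraries and in LPC + dantrolene replicate 2, and ALKAL1 was low in all 6 libraries with dantrolene compared with vehicle replicates 2 and 3.

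The member with the clearest change was KITLG, which encodes stem cell factor, the ligand of the receptor KIT. KITLG was at 20.5, 21.7 and 15.1 CPM in vehicle replicates 1 to 3, and at 94.1, 75.2 and 56.3 CPM with LPC. With dantrolene it was at 67.2, 157 and 106 CPM, and with LPC + dantrolene at 136, 26.3 and 146 CPM. No treated library overlapped the vehicle range, although LPC + dantrolene replicate 2 lay only just above it. KITLG lies at chr5:94016992-94110219 (Sscrofa11.1, RefSeq).

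In the quasi-likelihood test of edgeR, with p-values adjusted by Benjamini-Hochberg over 13216 genes, KITLG rose 3.94-fold with LPC (75.2 ± 18.9 vs. 19.1 ± 3.52 CPM, mean ± SD, n = 3; log2 fold change 1.98, SE 0.37, adjusted p = 5.41e-05). It rose 5.77-fold with dantrolene alone (110 ± 45.1 CPM; log2 fold change 2.53, SE 0.38, adjusted p = 3.01e-06) and 5.39-fold with LPC + dantrolene (103 ± 66.4 CPM; log2 fold change 2.43, SE 0.38, adjusted p = 6.26e-06). Each of these comparisons uses the same 3 vehicle libraries. As no treated library overlapped vehicle, KITLG was bound to be higher in every pair within an isolation, so the direction of the pairs adds nothing. The size within a pair was 3.47 to 4.60 times vehicle with LPC and 3.28 to 7.25 times with dantrolene. With LPC + dantrolene it was 6.63, 1.21 and 9.71 times vehicle in isolations 1, 2 and 3. The 3 calls held with each of the 12 libraries left out in turn, and the log2 fold change of LPC + dantrolene was 2.94 without its replicate 2. Between LPC + dantrolene and LPC the log2 difference in KITLG was 0.45 (SE 0.36, edgeR adjusted p = 0.928), and between LPC + dantrolene and dantrolene it was −0.10 (SE 0.36, adjusted p = 1). Without LPC + dantrolene replicate 2 these differences were 0.89 (adjusted p = 0.174) and 0.35 (adjusted p = 1).

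LPC raised KITLG less in the presence of dantrolene than in its absence. The interaction, which is the LPC effect with dantrolene less the LPC effect without it, was −2.08 on the log2 scale (SE 0.51, edgeR adjusted p = 0.00685), and lower in 3 of 3 isolations. It was −1.69 (adjusted p = 0.0070) without LPC + dantrolene replicate 2. The call was lost without LPC replicate 1, LPC replicate 2 or dantrolene replicate 2 (adjusted p = 0.0825 to 0.122), and it was also lost in DESeq2 (adjusted p = 0.139) and with scaling by total counts alone (adjusted p = 0.0642). Averaged over the other treatment, the effect of dantrolene on KITLG was 1.49 (SE 0.26, adjusted p = 6.18e-05) and that of LPC was 0.94 (SE 0.26, adjusted p = 0.0207). The latter was lost in 7 of 12 fits with a library left out (adjusted p = 0.0973 to 0.212). These left out vehicle replicate 1 or 2, LPC replicate 1 or 2, dantrolene replicate 1, or LPC + dantrolene replicate 1 or 3. The averaged LPC effect was also lost with the isolation as a replicate block (adjusted p = 0.157), in DESeq2 (adjusted p = 0.314) and with total counts alone (adjusted p = 0.0915).

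The level of KITLG moved with the scaling of the libraries. TMM factors were 0.918, 0.900 and 0.879 in vehicle, 1.08, 1.04 and 0.923 with LPC, 1.01, 1.09 and 1.09 with dantrolene, and 1.15, 0.863 and 1.11 with LPC + dantrolene. The 4 libraries with the lowest factors were also the 4 with the least KITLG. LPC replicate 3, whose factor of 0.923 was next to the 0.918 of vehicle replicate 1, had 56.3 CPM of KITLG against 20.5 CPM. With total counts in place of TMM factors, the log2 fold changes of KITLG were 2.17 with LPC, 2.78 with dantrolene and 2.73 with LPC + dantrolene (edgeR adjusted p = 0.00284, 0.00102 and 0.00128). The part of library composition in the KITLG result was not tested beyond this change of scaling.

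**Figure D2:**
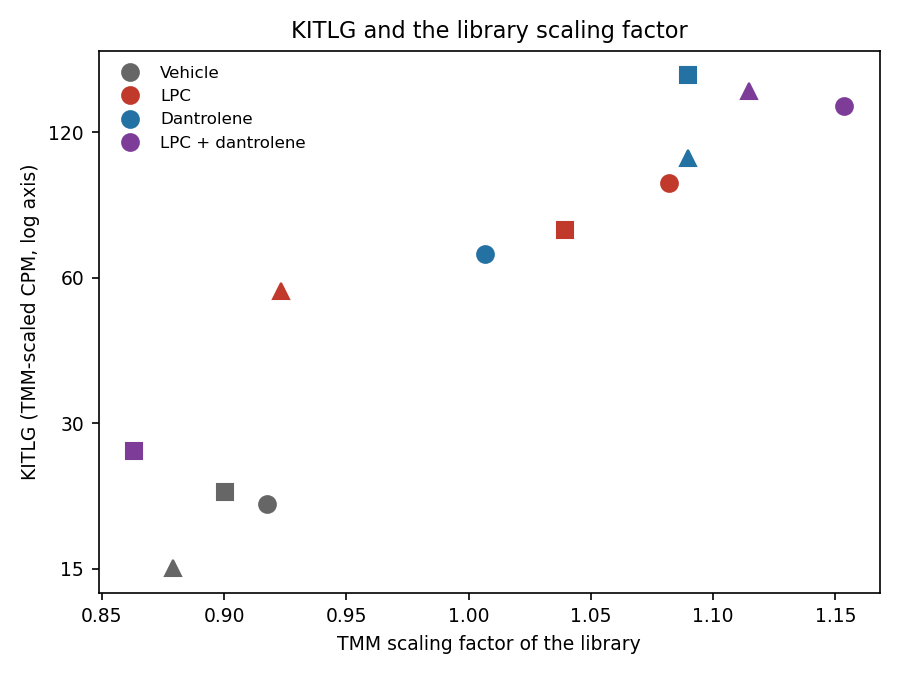
KITLG level (TMM-scaled CPM, log axis) against the TMM scaling factor of each library, coloured by treatment, with circles, squares and triangles for isolations 1, 2 and 3. The 3 vehicle libraries and LPC + dantrolene replicate 2 sit together at factors of 0.863 to 0.918 and 15.1 to 26.3 CPM, and the other 8 libraries lie at 56.3 CPM or above.

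KIT, the receptor of stem cell factor, went the other way with dantrolene. It was at 86.2, 84.3 and 74.8 CPM in vehicle and at 52.6, 64.4 and 102 CPM with LPC. With dantrolene KIT was at 62.2, 25.2 and 33.7 CPM, and with LPC + dantrolene at 33.6, 35.4 and 26.1 CPM. Every library with dantrolene was below every vehicle library, whereas the LPC libraries spread to both sides of vehicle. Unlike KITLG, KIT in LPC + dantrolene replicate 2 was level with the other libraries of its group.

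KIT fell 2.03-fold with dantrolene (40.4 ± 19.4 vs. 81.8 ± 6.08 CPM; log2 fold change −1.02, SE 0.33, edgeR adjusted p = 0.0372) and 2.58-fold with LPC + dantrolene (31.7 ± 4.95 CPM; log2 fold change −1.37, SE 0.34, adjusted p = 0.00312). With LPC the log2 fold change was −0.17 (SE 0.33, adjusted p = 0.822), and LPC + dantrolene against LPC gave −1.20 (SE 0.34, adjusted p = 0.0861). Averaged over cells with and without LPC (both backgrounds), the dantrolene effect on KIT was −1.11 (SE 0.24, adjusted p = 0.0015), lower in 3 of 3 isolations, and this call held with each library left out. The call for dantrolene alone was lost in 7 of 12 fits with a library left out (any vehicle library, LPC replicate 1 or 2, or dantrolene replicate 2 or 3; adjusted p = 0.0555 to 0.376), in DESeq2 (adjusted p = 0.0505), with RLE factors (adjusted p = 0.0544), with total counts alone (adjusted p = 0.156) and with the isolation as a replicate block (adjusted p = 0.0716). That for LPC + dantrolene was lost only without its replicate 3 (adjusted p = 0.0511). Without LPC + dantrolene replicate 2, KIT was also called lower with LPC + dantrolene than with LPC (−1.30, adjusted p = 0.0226).

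KIT is also a defining gene of mast cells. Of 4 mast cell markers listed, 2 had a row in the count table. HDC was at no more than 0.493 CPM in a library and MS4A2 was at 0, and the others were not analysed here. KIT lies at chr8:41402334-41492306, beside its paralog PDGFRA at chr8:40966568-41021440. PDGFRA was at 175 ± 20.8 CPM in vehicle and 210 ± 45.8 CPM with dantrolene (log2 fold change 0.26, SE 0.32, edgeR adjusted p = 0.773). In RNA from whole cultures, fewer cells that express a gene and less of its RNA per cell cannot be told apart.

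**Figure D3:**
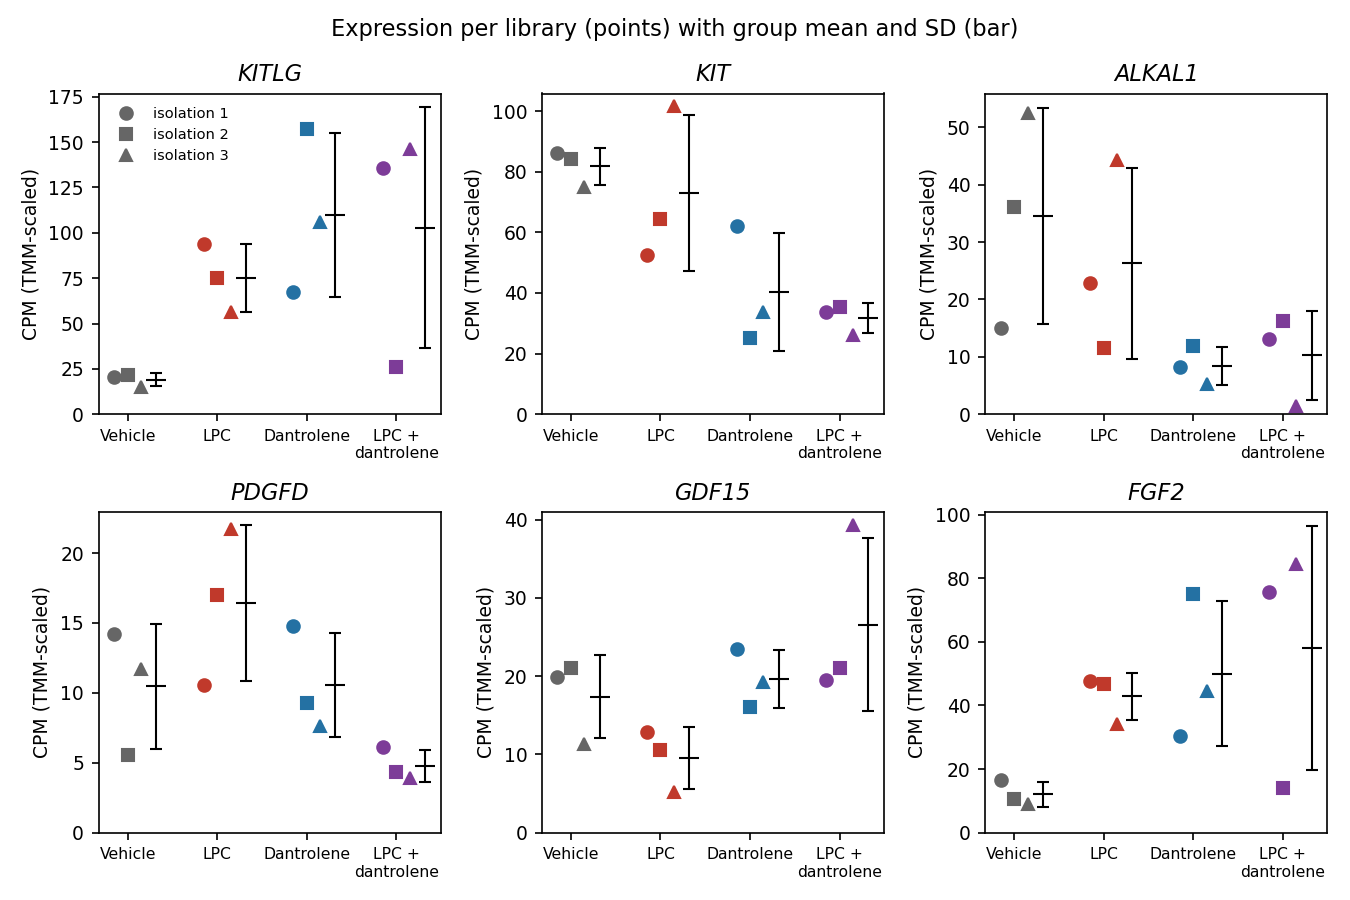
TMM-scaled CPM of the 5 called members and of FGF2 in each library (points, with shape for isolation), with the group mean and SD (n = 3) beside them. KITLG and FGF2 were above vehicle in the LPC and dantrolene groups, KIT and ALKAL1 were lower with dantrolene, and PDGFD was lower and GDF15 higher in LPC + dantrolene than in LPC.

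ALKAL1 encodes a secreted ligand of the receptors ALK and LTK. It was at 15.02, 36.0 and 52.5 CPM in vehicle and 23.0, 11.6 and 44.3 CPM with LPC, against 8.21, 11.8 and 5.24 CPM with dantrolene and 13.1, 16.3 and 1.504 CPM with LPC + dantrolene. The dantrolene libraries all lay below the vehicle libraries, and only replicate 2 of the LPC + dantrolene libraries reached the vehicle range. Vehicle replicate 1 (15.02 CPM) was close to LPC + dantrolene replicates 1 and 2 (13.1 and 16.3 CPM), and the spread within vehicle was wide. LPC + dantrolene replicate 3, at 1.504 CPM, lay far below the other libraries of its group.

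ALKAL1 fell 4.08-fold with dantrolene (8.43 ± 3.31 vs. 34.5 ± 18.8 CPM; log2 fold change −2.03, SE 0.43, edgeR adjusted p = 0.00049) and 3.36-fold with LPC + dantrolene (10.3 ± 7.78 CPM; log2 fold change −1.75, SE 0.43, adjusted p = 0.00308). It was lower than vehicle in 6 of 6 isolation pairs, which use the same 3 vehicle libraries for both treatments. The 3 pairs with dantrolene were bound to be lower, as those groups did not overlap. ALKAL1 with LPC + dantrolene was 0.872, 0.452 and 0.0287 times vehicle in isolations 1, 2 and 3. With LPC alone the log2 fold change was −0.39 (SE 0.42, adjusted p = 0.68). The fall with dantrolene was called with each library left out but not in DESeq2 (adjusted p = 0.148). The fall with LPC + dantrolene was lost without vehicle replicate 2, LPC replicate 2 or LPC + dantrolene replicate 3 (adjusted p = 0.0505 to 0.0704), in DESeq2 (adjusted p = 0.321) and with the replicate block (adjusted p = 0.0582). It was also lost with total counts alone (adjusted p = 0.0753) and with only the groups compared (adjusted p = 0.124). ALKAL1 lies at chr4:77673200-77682697, and its receptors were not analysed here.

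Among the PDGF ligands, only PDGFD, a ligand of PDGFRB that is secreted in a latent form, was called in any comparison. PDGFD was at 14.2, 5.55 and 11.7 CPM in vehicle, 10.6, 17.0 and 21.7 CPM with LPC, 14.8, 9.26 and 7.64 CPM with dantrolene, and 6.10, 4.35 and 3.91 CPM with LPC + dantrolene. The LPC + dantrolene libraries were below all libraries of LPC and of dantrolene and overlapped vehicle replicate 2.

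PDGFD was 3.43-fold lower with LPC + dantrolene than with LPC (4.79 ± 1.16 vs. 16.4 ± 5.60 CPM, log2 fold change −1.78, SE 0.38, edgeR adjusted p = 0.00542). As these groups did not overlap, it was bound to be lower in 3 of 3 isolations. The call of PDGFD against LPC was lost without LPC replicate 2, LPC replicate 3 or LPC + dantrolene replicate 3 (adjusted p = 0.0681 to 0.136). It was also lost with total counts alone (adjusted p = 0.0992) and with only the groups compared (adjusted p = 0.0562). Against vehicle the log2 fold change was −1.13 (SE 0.37, adjusted p = 0.0478), a call lost in 11 of 12 fits with a library left out and held only without vehicle replicate 2. The call was also lost with the replicate block (adjusted p = 0.141), in DESeq2 (adjusted p = 0.103) and with RLE factors (adjusted p = 0.0692). Total counts alone (adjusted p = 0.23), no low-count filter (adjusted p = 0.0551) and only the groups compared (adjusted p = 0.267) lost it too. Neither LPC (0.65, SE 0.37, adjusted p = 0.42) nor dantrolene (0.01, SE 0.37, adjusted p = 0.993) was called alone. The LPC effect was lower with dantrolene than without it by 1.78 log2 units (interaction −1.78, SE 0.52, adjusted p = 0.0283). This call was lost in 5 of 12 fits with a library left out (adjusted p = 0.0856 to 0.171). These left out vehicle replicate 2, LPC replicate 2 or 3, or dantrolene replicate 1 or 2. The interaction call was also lost with the replicate block (adjusted p = 0.0692) and with total counts alone (adjusted p = 0.0642). Over both backgrounds the dantrolene effect on PDGFD was −0.88 (SE 0.26, adjusted p = 0.0336), lost in 7 of 12 fits with a library left out (adjusted p = 0.0885 to 0.16) and with the block (adjusted p = 0.102). It was also lost in DESeq2 (adjusted p = 0.0749) and with total counts alone (adjusted p = 0.168). PDGFD lies at chr9:34388636-34621227.

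No other PDGF family member was called. PDGFB, a ligand of both PDGF receptors, was at 4.72, 6.72 and 8.95 CPM in vehicle and 3.78, 3.58 and 3.38 CPM with dantrolene, groups that did not overlap (log2 fold change −0.92, SE 0.41, edgeR adjusted p = 0.191). PDGFRL, a receptor-like protein without a kinase domain, was at 36.6 ± 8.42 CPM in vehicle and 18.4 ± 9.09 CPM with dantrolene (log2 fold change −0.99, SE 0.36, adjusted p = 0.0707). PDGFRB, the receptor of PDGFB and PDGFD, was at 612 ± 111 CPM in vehicle, 420 ± 53.0 CPM with LPC, 487 ± 165 CPM with dantrolene and 568 ± 215 CPM with LPC + dantrolene, with adjusted p = 0.48 or more in each comparison with vehicle. PDGFA and PDGFC, ligands acting mainly through PDGFRA, had log2 fold changes between −0.41 and 0.11 against vehicle.

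GDF15, a secreted stress-response factor of the TGF-beta superfamily that signals through the receptor GFRAL with RET, was at 19.8, 21.1 and 11.3 CPM in vehicle and 12.9, 10.5 and 5.19 CPM with LPC. It was at 23.5, 16.1 and 19.3 CPM with dantrolene and 19.5, 21.1 and 39.3 CPM with LPC + dantrolene. GDF15 was lower with LPC than with vehicle in 3 of 3 isolations, though the groups overlapped, and all LPC + dantrolene libraries were above all LPC libraries. Its receptor GFRAL was at 0 counts in all 12 libraries, and RET had a mean of 4.69 CPM.

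GDF15 was 2.79-fold higher with LPC + dantrolene than with LPC (26.6 ± 10.998 vs. 9.55 ± 3.95 CPM; log2 fold change 1.48, SE 0.36, edgeR adjusted p = 0.0243). This call was lost in 6 of 12 fits with a library left out, namely without vehicle replicate 1 or 2, any LPC library or LPC + dantrolene replicate 3 (adjusted p = 0.058 to 0.487), and with the replicate block (adjusted p = 0.123). It was also lost with total counts alone (adjusted p = 0.179) and with only the groups compared (adjusted p = 0.197). The log2 fold change was −0.87 with LPC (SE 0.35, adjusted p = 0.146) and 0.17 with dantrolene (SE 0.35, adjusted p = 0.861). Over both backgrounds the dantrolene effect on GDF15 was 0.83 (SE 0.25, adjusted p = 0.0391). With a library left out, it was held only without LPC + dantrolene replicate 1 or 2 (adjusted p = 0.0514 to 0.316 in the other 10 fits). The call was also lost with the block (adjusted p = 0.115), in DESeq2 (adjusted p = 0.0519) and with total counts alone (adjusted p = 0.0603). GDF15 lies at chr2:59409035-59411356.

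HGF, the hepatocyte growth factor, and its receptor MET were not called with all 12 libraries, and were chosen after their values were seen. HGF was at 4.58, 4.09 and 2.44 CPM in vehicle, 8.66, 7.71 and 6.79 CPM with LPC, 4.49, 7.88 and 7.97 CPM with dantrolene, and 7.996, 3.54 and 8.77 CPM with LPC + dantrolene. MET was at 6.01, 8.41 and 3.89 CPM in vehicle, 15.5, 8.74 and 8.69 CPM with LPC, 5.86, 13.1 and 11.6 CPM with dantrolene, and 12.4, 4.29 and 15.2 CPM with LPC + dantrolene. For both genes the LPC libraries lay above all vehicle libraries, and LPC + dantrolene replicate 2 lay within the vehicle range.

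With LPC the log2 fold change was 1.06 for HGF (SE 0.40, edgeR adjusted p = 0.0953) and 0.85 for MET (SE 0.39, adjusted p = 0.231). Leaving out LPC + dantrolene replicate 2, which also changes the genes that pass the filter and the shared estimate of spread, brought HGF and MET among the members called higher with LPC and with LPC + dantrolene.

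No member of the FGF family among the 44 was called in any comparison. Of its receptors, FGFR1 was at 214, 246 and 231 CPM in vehicle, 208, 117 and 178 CPM with LPC, 178, 133 and 163 CPM with dantrolene, and 129, 256 and 166 CPM with LPC + dantrolene. The LPC and the dantrolene libraries of FGFR1 did not overlap vehicle, yet the log2 fold changes were −0.46 (SE 0.32, edgeR adjusted p = 0.559) and −0.54 (SE 0.32, adjusted p = 0.448). FGFR2 was at 112 ± 20.9 CPM in vehicle, 105 ± 18.7 CPM with LPC, 77.4 ± 26.3 CPM with dantrolene and 78.9 ± 34.0 CPM with LPC + dantrolene. FGF9, a secreted ligand, was at 6.23 ± 1.56 CPM in vehicle and 3.19 ± 1.82 CPM with LPC + dantrolene (log2 fold change −0.96, SE 0.43, adjusted p = 0.237).

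FGF2, the basic fibroblast growth factor, carries no symbol in the count table and so was not a member. It was identified from a table of gene names and chosen after its values were seen. FGF2 was at 16.6, 10.5 and 9.18 CPM in vehicle, 47.5, 46.7 and 34.2 CPM with LPC, 30.3, 75.0 and 44.6 CPM with dantrolene, and 75.5, 14.0 and 84.5 CPM with LPC + dantrolene. As for KITLG, the 3 vehicle libraries and LPC + dantrolene replicate 2 held the 4 lowest values. FGF2 rose 3.53-fold with LPC (log2 fold change 1.82, SE 0.38, edgeR adjusted p = 0.000304), 4.13-fold with dantrolene (2.05, SE 0.39, adjusted p = 8.22e-05) and 4.79-fold with LPC + dantrolene (2.26, SE 0.39, adjusted p = 2.47e-05), and each call held with each library left out. Without LPC + dantrolene replicate 2 the last of these was 2.77. Its interaction was −1.61 (SE 0.53, adjusted p = 0.0601).

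In the IGF axis no member was called. IGF1, the ligand of IGF1R, was at 6.44, 7.24 and 4.36 CPM in vehicle, 11.9, 5.76 and 11.8 CPM with LPC, 9.47, 17.4 and 7.80 CPM with dantrolene, and 6.89, 3.91 and 10.0 CPM with LPC + dantrolene. The dantrolene libraries were above all vehicle libraries (log2 fold change 0.94, SE 0.38, edgeR adjusted p = 0.134). IGF1R was at 132, 129 and 118 CPM in vehicle and 92.9, 82.0 and 72.5 CPM with dantrolene, also without overlap (log2 fold change −0.61, SE 0.33, adjusted p = 0.359). IGF2R, the mannose 6-phosphate receptor that takes IGF2 into the cell, was at 409, 214 and 215 CPM in vehicle and 185, 170 and 192 CPM with LPC, again without overlap (log2 fold change −0.62, SE 0.33, adjusted p = 0.368).

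The 4 IGF binding proteins among the members each had a negative log2 fold change with dantrolene, with a median of −0.56, and with LPC + dantrolene, with a median of −0.62, and none was called. The values with dantrolene were −0.61 (SE 0.37) for IGFBP2, −0.61 (SE 0.33) for IGFBP4, −0.47 (SE 0.35) for IGFBP5 and −0.51 (SE 0.34) for IGFBP7, and their edgeR adjusted p ranged from 0.37 to 0.592. With total counts in place of TMM factors they were −0.34, −0.37, −0.25 and −0.28. IGFBP7 was at 1716, 1112 and 1879 CPM in vehicle and 1479, 720 and 1098 CPM with dantrolene, so the groups overlapped. IGFBP2 and IGFBP5 are neighbours on chromosome 15, at chr15:118822092-118850985 and chr15:118861816-118877787, and their levels over the 12 libraries ranged from 49.3 to 244 CPM and from 62.0 to 263 CPM.

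Of the remaining families, none had a call. AREG, a ligand of EGFR, was at 2.34 ± 0.754 CPM with LPC and 5.30 ± 0.517 CPM with LPC + dantrolene, groups that did not overlap (log2 fold change 1.18, SE 0.45, edgeR adjusted p = 0.407), and its dantrolene effect over both backgrounds was 0.99 (SE 0.31, adjusted p = 0.0509). EGFR itself was at 169 ± 25.1 CPM in vehicle and 120 ± 10.2 CPM with dantrolene (log2 fold change −0.50, SE 0.32, adjusted p = 0.509). AXL, a receptor of the TAM group, was at 502, 659 and 649 CPM in vehicle and 414, 432 and 425 CPM with dantrolene (log2 fold change −0.51, SE 0.33, adjusted p = 0.51), and its ligand GAS6 was at 136 ± 48.8 and 112 ± 29.9 CPM.

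PTN, the heparin-binding factor pleiotrophin, was at 19.3, 15.9 and 18.2 CPM in vehicle and 10.2, 12.5 and 10.5 CPM with dantrolene, all below vehicle (log2 fold change −0.69, SE 0.34, edgeR adjusted p = 0.301). FLT1, a VEGF receptor of endothelial cells, was at 18.5 ± 5.35 CPM in vehicle and 28.5 ± 2.34 CPM with LPC + dantrolene, groups that did not overlap (log2 fold change 0.62, SE 0.34, adjusted p = 0.416), and at 18.2, 11.8 and 18.1 CPM with LPC (LPC + dantrolene against LPC 0.83, SE 0.34, adjusted p = 0.495). Beside it, CDH5 of the endothelial list fell with dantrolene (log2 fold change −1.20, SE 0.34, adjusted p = 0.0111), the only call among the 12 endothelial markers there, and their part in the FLT1 values was not tested. MDK, VEGFC, BDNF, HBEGF and NRG1 had p at or over 0.05 in all 8 contrasts.

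Counted over all 43 tested members, KITLG alone was called higher with LPC and none was called lower (against 8.54% higher and 0.144% lower of all genes tested). For the count of 0, 1 member had an unadjusted p under 0.05 in edgeR, and DESeq2 called 0. With dantrolene KITLG was called higher, and KIT and ALKAL1 lower (7.54% and 1.26% of all genes). With LPC + dantrolene KITLG was called higher, and KIT, ALKAL1 and PDGFD lower (6.23% and 0.9% of all genes). With total counts in place of TMM factors the members called were 1 higher and 1 lower in each of the dantrolene comparisons with vehicle. As shares of the 43 members the counts were 2.33% higher in each of the 3 comparisons, and 0%, 4.65% and 6.98% lower. With the isolation as a replicate block the members called lower were 1 with dantrolene and 1 with LPC + dantrolene.

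The median log2 fold change of the members was −0.14 with LPC, −0.25 with dantrolene and −0.22 with LPC + dantrolene, beside −0.18, −0.11 and −0.08 for all genes tested. With total counts alone these medians were 0.02, 0.0042 and 0.02 for the members and −0.0023, 0.13 and 0.12 for all genes. Receptors had a median of −0.34 and ligands of −0.13 with dantrolene, over 13 and 23 tested members. Members whose groups did not overlap numbered 3 higher and 4 lower with LPC (16.6% and 10.6% of all genes), 3 higher and 9 lower with dantrolene (16.1% and 11% of all genes), and 2 higher and 3 lower with LPC + dantrolene (4.71% and 5.74% of all genes). Between LPC + dantrolene and LPC there were 5 higher and 2 lower (4.86% and 4.93% of all genes), and between LPC + dantrolene and dantrolene 1 higher, EGFR, and 1 lower, PDGFD (2.54% and 2.17% of all genes).

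**Figure D4:**
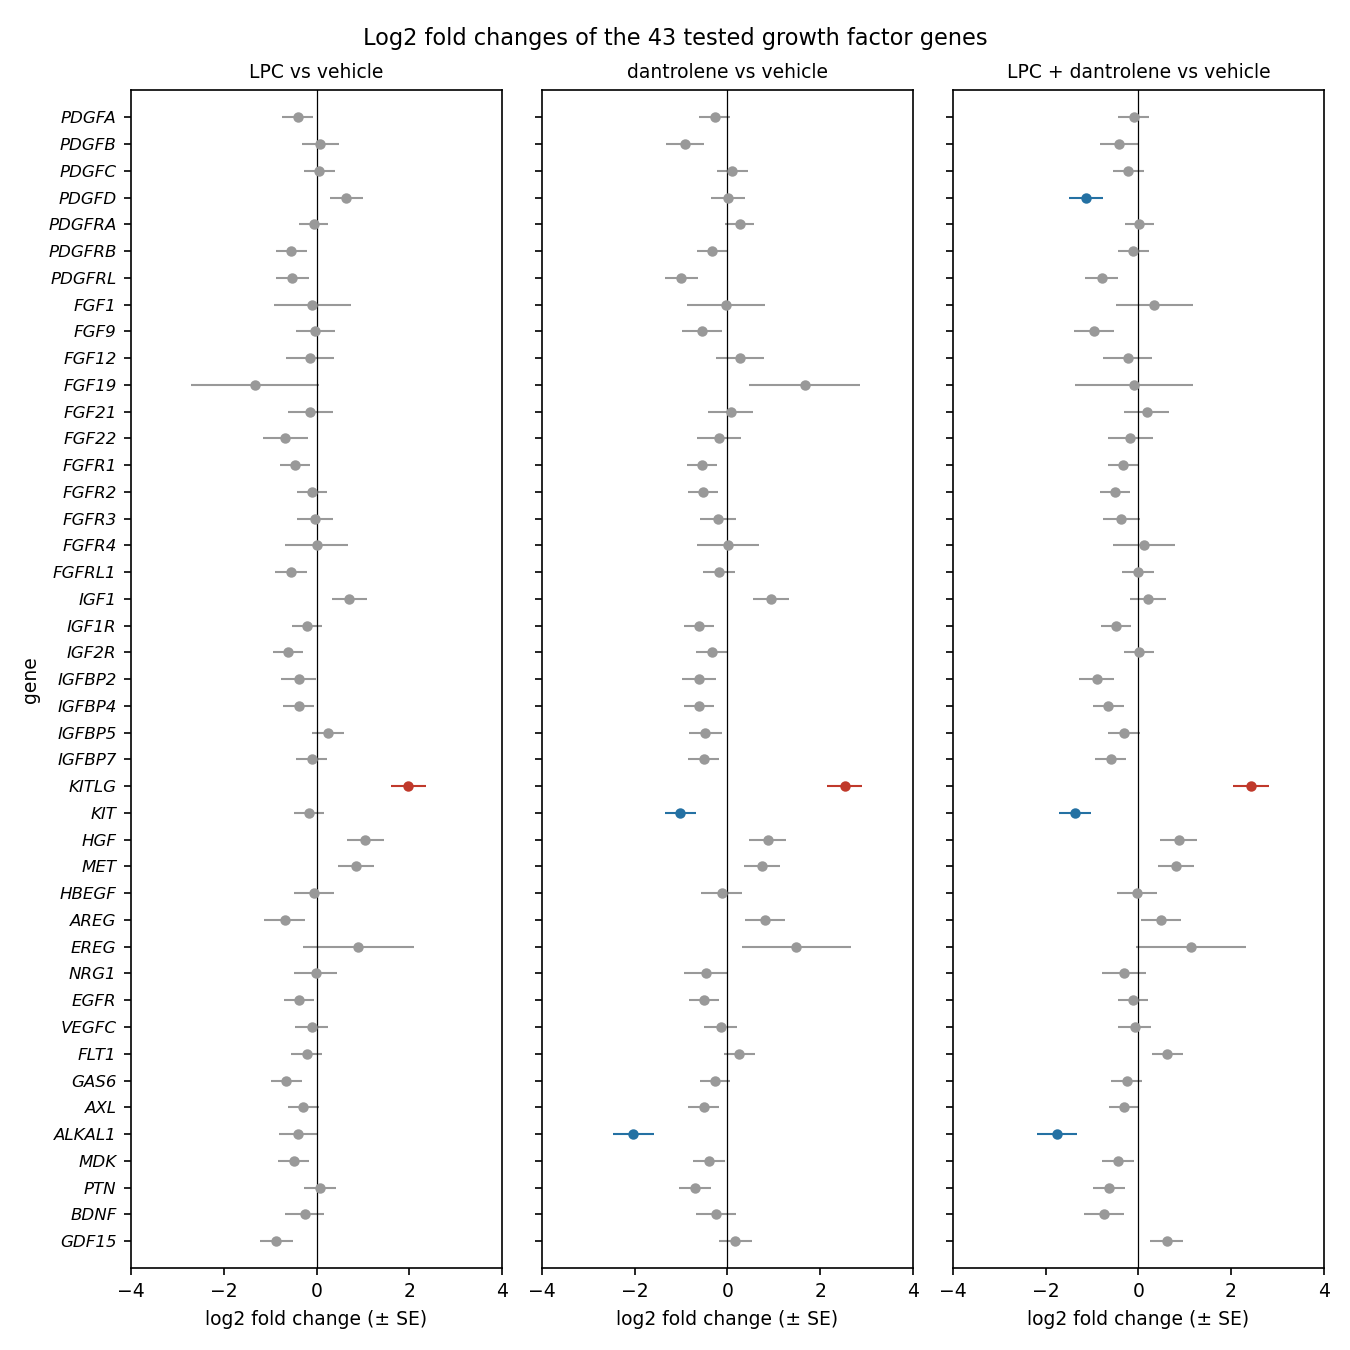
Log2 fold change (point) and SE (line) of each of the 43 tested members against the same 3 vehicle libraries, for LPC, dantrolene and LPC + dantrolene; red marks members called higher and blue members called lower at an adjusted p under 0.05 (edgeR). KITLG lies near 2 or above in all 3 panels, and most other members lie within 1 log2 unit of 0.

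Between LPC + dantrolene and LPC, GDF15 was called higher and PDGFD lower (0.219% and 0.288% of all genes). Between LPC + dantrolene and dantrolene, no member was called in either direction (0.0151% and 0.00757% of all genes); at an unadjusted p under 0.05 there were 0 higher and 1 lower, PDGFD, and DESeq2 also called 0. In the interaction KITLG and PDGFD were called lower and none higher (4.49% and 0.159% of all genes). Averaged over the other treatment, LPC gave 1 call, KITLG higher, and none lower (3.1% and 0.0303% of all genes), and dantrolene gave KITLG and GDF15 higher and PDGFD, KIT and ALKAL1 lower (2.55% and 1.45% of all genes). In all, 5 members were called in at least 1 contrast, 14 others had an unadjusted p under 0.05 in at least 1, and 24 in none.

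Leaving out LPC + dantrolene replicate 2 raised the number of members called in most comparisons, as it did for all genes. With LPC 3 members were then called higher, KITLG, HGF and MET (11.9% of all genes), and with dantrolene 2 were higher, KITLG and IGF1, and 3 lower, KIT, ALKAL1 and PDGFRL (11.2% and 2.09% of all genes). With LPC + dantrolene the 3 higher were KITLG, HGF and MET, and the 6 lower were KIT, ALKAL1, PDGFRL, FGFR2, IGFBP5 and IGFBP7 (12.6% and 2.89% of all genes). Over both backgrounds dantrolene then gave 3 members higher, KITLG, AREG and GDF15, and 8 lower, PDGFD, PDGFRL, FGFR2, IGFBP5, IGFBP7, KIT, ALKAL1 and PTN (8.84% and 3.42% of all genes). Against LPC, GDF15 was then higher and PDGFD, IGFBP5, KIT and ALKAL1 lower (0.39% and 0.641% of all genes), and against dantrolene none was called (0.0221% and 0% of all genes). KITLG and PDGFD were again the 2 members called lower in the interaction and none was higher (3.76% and 0.184% of all genes), and the averaged LPC effect was called higher for KITLG and HGF (9.48% and 0.412% of all genes).

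Downstream of the receptors, the adaptors and RAS-ERK core had 6 of 32 tested genes called higher with LPC, 4 with dantrolene and 3 with LPC + dantrolene, and none lower. Of all genes tested, 8.54%, 7.54% and 6.23% were higher and 0.144%, 1.26% and 0.9% lower in these comparisons. Without LPC + dantrolene replicate 2 the counts of this list called higher were 9, 8 and 9, beside 11.9%, 11.2% and 12.6% of all genes. RASA1, a RAS GTPase activating protein, had log2 fold changes of 1.51, 1.17 and 1.06 in these comparisons. RASA1 was at 40.3, 32.1 and 26.7 CPM in vehicle and at 92.0, 26.9 and 87.1 CPM with LPC + dantrolene, so here too replicate 2 of that group lay within the vehicle range. NF1, another RAS inhibitor, was called in the same 3 comparisons (log2 fold changes 1.51, 1.34 and 1.34). The median of this list was −0.17 with LPC, beside −0.18 for all genes.

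In the PI3K-AKT-mTOR core 3, 2 and 3 of 20 tested genes were called higher with LPC, dantrolene and LPC + dantrolene, and none lower, beside the same shares of all genes. PIK3CA, the catalytic p110 alpha subunit, rose by 2.44, 2.11 and 1.80 log2 units (edgeR adjusted p = 4.59e-06, 5.97e-05 and 0.000547), and RICTOR, the mTORC2 scaffold, by 2.32, 2.09 and 2.09 (adjusted p = 9.05e-06, 6.65e-05 and 7.38e-05). Of 18 feedback inhibitors, SPRED1 and FLRT3 were called higher in all 3 comparisons with vehicle, and DUSP1, a MAP kinase phosphatase, lower with dantrolene (log2 fold change −1.02, adjusted p = 0.0302). Of 25 early response genes, ETV1, an ETS factor, was called higher in each (1.14, 1.08 and 1.11), and no other gene of that list was called. Beside these 2 lists, 8.54%, 7.54% and 6.23% of all genes tested were called higher with LPC, dantrolene and LPC + dantrolene. With dantrolene 1.26% were called lower.

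Around the ligands, 1 of 16 IGF axis proteases and adaptors was called with dantrolene, STC2, an inhibitor of IGFBP proteases of the pappalysin type (log2 fold change −1.06, SE 0.33, edgeR adjusted p = 0.0237), and none with LPC or LPC + dantrolene. PAPPA, the pappalysin that cleaves IGFBP4, was at 13.9 ± 7.48 CPM in vehicle and 24.9 ± 1.66 CPM with dantrolene, and its dantrolene effect over both backgrounds was 0.91 (SE 0.25, adjusted p = 0.0219). Of 13 sheddases and processing genes, ADAM10 was called higher in the 3 comparisons with vehicle (1.51, 1.36 and 1.10). Of 20 co-receptors and heparan sulfate partners, LRP6 was called higher in the 3 comparisons (1.71, 1.38 and 1.41), and SULF2, a heparan sulfate sulfatase, lower with dantrolene (−1.18, adjusted p = 0.0314). The shares of all genes tested called higher were 8.54%, 7.54% and 6.23% with LPC, dantrolene and LPC + dantrolene. Those called lower were 0.144%, 1.26% and 0.9%.

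Of 30 other ligands and receptors of these families, NRG4, a ligand of ERBB4, was called higher with LPC and dantrolene (1.58 and 1.45), ANGPT1 and DDR2 higher with LPC (2.56 and 1.10), and NGFR lower with dantrolene. Beside them, 8.54% of all genes tested were called higher with LPC, and 7.54% higher and 1.26% lower with dantrolene. NGFR was at 0, 0 and 5.81 CPM in vehicle and at 0 in all 3 dantrolene libraries, so its call rests on vehicle replicate 3 and no fold is given.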

How the data were processed

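Poly-A RNA of 12 cultures of paVICs was sequenced, and the authors deposited whole-number counts per gene that they had adjusted for batch with ComBat of the SVA package. The counts are therefore not the reads as sequenced. The study's methods do not name the batch, which is taken here to be the isolation. The adjustment pulled the isolations together before any test, and the tests take no account of it, so p-values can be too small. The study's methods name STAR as the aligner, whereas the submitters' processing notes name HISAT2 2.0.5, R 4.1.1, DESeq2 1.32.0 and the build Sscrofa11.1, and which made the counts is not given in the sources used here. The deposited tables of the authors' own comparisons hold a mean signal, log2 fold changes with SE, a Wald statistic, and p-values, and were not used.

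The main tests were run on the counts as deposited with edgeR 4.0.16 (R 4.3.3). The filter was filterByExpr given the 4 groups, which left 13216 genes, and the scaling was TMM. A single quasi-likelihood fit to the 12 libraries had 1 coefficient per group, and p-values were adjusted (Benjamini-Hochberg) over these genes and called under 0.05. Each effect averaged over the other treatment is the mean of the 2 simple effects on the log2 scale. A pair of libraries is those of the same isolation. The alternatives were DESeq2 1.42.0, RLE factors, total counts in place of TMM, a minimum of 10 counts in every library, no low-count filter, fits to the compared groups only, the isolation as a replicate block, and each library left out. The steps were tested on simulated counts.

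Members come from a rule on gene symbols and counts, and the members and the pathway and marker lists were chosen with earlier results of these data known. Full statistics are given for members called in any contrast. Of the others, those named are of the same family as a called member or among the 10 with the highest mean CPM, or, as HGF, MET, FGF9, IGF1, AREG, FLT1 and PTN, were chosen after their values were seen; in the pathway lists, called genes are named, though some are not reported here. Symbols without a row in the count table, among them FGF7, IGF2, IGFBP3, ALK and LTK, were not analysed here. Coordinates come from RefSeq on Sscrofa11.1, which matched 43 of 44 members (not PDGFB). Neither sequences nor gene lengths were used here.

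Labels give replicate numbers and no isolation. The study's methods place each isolation on its own day with 1 replicate per group, so the numbers are taken to pair the libraries. In a check of this, the libraries' deviations from their group means correlated with a median of −0.152 (range −0.536 to 0.207) within 18 same-isolation pairs and 0.108 in 36 others. A ComBat adjustment for isolation fixes this outcome, so the check cannot test the pairing. Replicates are separate cultures of 3 isolations, and their depth of 16489684 to 24105935 counts covers counting error only.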

Additional observations from a re-analysis of the deposited data

Results flagged for a closer look

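By the edgeR test of the interaction, the LPC effect was lower with dantrolene than without it for 2 members, KITLG and PDGFD. That is 4.65% of the 43 members tested, beside 4.49% lower of all genes tested. For KITLG the difference was −2.08 on the log2 scale (SE 0.51, adjusted p = 0.00685), with an LPC effect of 1.98 without dantrolene and −0.10 with it, and it had the same sign in 3 of 3 isolations. The −0.10 rests on LPC + dantrolene replicate 2, since LPC + dantrolene was 2.02, 0.167 and 1.38 times dantrolene in isolations 1 to 3, and without that library the LPC effect with dantrolene was 0.35 and the difference −1.69. For PDGFD the difference was −1.78 (SE 0.52, adjusted p = 0.0283), with an LPC effect of 0.65 without dantrolene and −1.14 with it, also in 3 of 3 isolations. Both simple effects of a gene share no library, but the effects of LPC and of dantrolene share the vehicle libraries. Neither call held in every fit with a library left out.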

How the results depend on the processing

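Of 745 values of the 5 called members under an alternative, 641 kept their side of the threshold, 97 lost a call, 7 gained one and 0 reversed. These values span all 8 contrasts, and many belong to results not called in the main fit, which had no call to lose. The 641 is therefore not a measure of how well the calls held. PDGFD with LPC + dantrolene against vehicle lost its call under 17 of 19 alternatives, and KIT with dantrolene under 11 of 19. KITLG against vehicle was called under all 19 alternatives in each of the 3 comparisons. The numbers of members called moved as follows, and the cause was not tested.

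With DESeq2, members called lower numbered 0 with dantrolene (2 in the edgeR fit with TMM factors), 1 with LPC + dantrolene (3), 1 in the interaction (2) and 1 in the averaged dantrolene effect (3), and those called higher 0 in the averaged LPC effect (1) and 1 in the averaged dantrolene effect (2). With total counts alone, members lower were 1 with dantrolene, 1 with LPC + dantrolene, 0 for LPC + dantrolene against LPC (1) and 0 in the interaction, and members higher were 0 against LPC (1), 0 in the averaged LPC effect and 1 in the averaged dantrolene effect. RLE factors gave 1 lower with dantrolene, and RLE factors and no filter each gave 2 lower with LPC + dantrolene, without PDGFD (adjusted p = 0.0692 and 0.0551). Against LPC, no filter gave 2 lower and at least 10 counts in every library 3. With only the groups compared, 3 were higher with LPC (1), 1 lower with LPC + dantrolene, and 0 higher and 0 lower against LPC.

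With the isolation as a replicate block, which pairs the libraries, members lower were 1 with dantrolene, 1 with LPC + dantrolene and 1 in the interaction, and members higher were 0 against LPC, 0 in the averaged LPC effect and 1 in the averaged dantrolene effect. The calls so lost were KIT with dantrolene (edgeR adjusted p = 0.0716), ALKAL1 and PDGFD with LPC + dantrolene (0.0582 and 0.141), GDF15 against LPC (0.123), PDGFD in the interaction (0.0692), KITLG in the averaged LPC effect (0.157), and PDGFD and GDF15 in the averaged dantrolene effect (0.102 and 0.115).

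Leaving out each library in turn, members higher ranged from 1 to 3 with LPC, 1 to 2 with dantrolene and 1 to 3 with LPC + dantrolene. They ranged from 0 to 1 for LPC + dantrolene against LPC. In the averaged effects they ranged from 0 to 2 for LPC and 1 to 3 for dantrolene. Members lower ranged from 1 to 3 with dantrolene, 0 to 6 with LPC + dantrolene and 0 to 4 for LPC + dantrolene against LPC. In the averaged dantrolene effect members lower ranged from 2 to 8, and in the interaction from 0 to 3. Depth limits EREG, FGF1, FGF18 and FGF19, each at 0 counts in at least 1 library.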

Other observations

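Outside the 44 members, 3 genes of these families were identified from a table of gene names and not from the count table, FGF2, IGFBP6 and PGF. IGFBP6, which binds IGF2, was at 16.1 ± 6.51 CPM in vehicle and 9.73 ± 2.26 CPM with dantrolene (log2 fold change −0.73, SE 0.36, edgeR adjusted p = 0.3), and PGF, a ligand of FLT1, was at 2.55 ± 1.10 CPM in vehicle, with adjusted p of 0.725 or more in each comparison with vehicle.

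Among the 8 matched symbols that had counts but fewer than 60 were the receptors KDR (15 counts over the 12 libraries) and CSF1R (30 counts), and the ligands ALKAL2 (27), FGF10 (24), FGF5 (21), FGF16 (9), FGF14 (49) and VEGFD (36). No comparison was made for them.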
